A study of Mus musculus with 2 samples.

Results

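Spots lying on the granule layer of the mouse dentate gyrus were examined in 2 coronal brain sections that hold both dorsal hippocampi. Each section lay on a Visium capture area, a grid of barcoded spots that each collect polyadenylated RNA from a small patch of tissue and count it as unique molecular identifiers (UMIs, 1 per captured molecule). A spot covers parts of several cells, so its profile is that of a place and not of a cell type. For each spot with at least 2000 UMIs, a score was formed as the mean over 6 genes (Prox1, C1ql2, Dsp, Lct, Stxbp6 and Tdo2) of ln(1 + UMIs per 10000 UMIs of the spot), and the 120 spots with the highest score in each section were taken. These 240 spots came from 7890 in all, of which 7173 reached the minimum.

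The section labelled trained came from a mouse that had learned the active place avoidance task, in which part of a rotating arena delivers a shock, and the section labelled untrained from a mouse that walked the same arena with the shock off. Both were adult male ArcCreERT2::eYFPflx mice on a C57BL/6 background, a line in which an inducible Cre under the Arc promoter switches on eYFP, and both brains were frozen an hour after a retention test. With 1 section, and so 1 mouse, per group, no test between groups was possible and no p-value is given. Mouse, section, capture area and training cannot be told apart. Intervals below are exact 95% intervals that cover counting error only. Fewer cells of a type under a spot and less RNA per cell cannot be told apart either.

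Granule cells are the small, densely packed principal neurons of the dentate gyrus. They receive cortical input through the perforant path and send mossy fibre axons, with large glutamatergic terminals, to the hilus and to CA3. Their identity depends on the homeobox factor Prox1, they hold the calcium buffer calbindin, and few of them fire in any one environment. New granule cells are added in adult life from precursors at the inner edge of the layer.

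Basic helix-loop-helix factors such as Neurod1, Neurod2 and Bhlhe22 bind E-boxes, and all of these were detected in the granule layer spots (values below). The 250 bases before the start of 3 of the 15 genes that stood highest there are therefore printed, as the mouse build GRCm38.p6 of RefSeq gives them, 5′ to 3′ on the strand of the gene and in lower case, with each E-box of the letters CAGCTG or CAGATG (searched on both strands) in capitals. These are the first 3 of the 15 in order of fold that have 1 listed start. Fam163b lies at chr2:27142478-27142727 on the minus strand, Cdh9, which encodes a cadherin of mossy fibre contacts, at chr15:16728665-16728914 on the plus strand, and Rfx3, which encodes a factor that drives ciliary genes, at chr19:28011167-28011416 on the minus strand.
Fam163b: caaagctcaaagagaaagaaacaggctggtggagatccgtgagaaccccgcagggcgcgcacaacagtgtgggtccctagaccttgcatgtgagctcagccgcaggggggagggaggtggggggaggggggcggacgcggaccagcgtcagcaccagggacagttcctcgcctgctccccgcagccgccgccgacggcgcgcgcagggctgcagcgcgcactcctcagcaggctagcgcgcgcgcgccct
Cdh9: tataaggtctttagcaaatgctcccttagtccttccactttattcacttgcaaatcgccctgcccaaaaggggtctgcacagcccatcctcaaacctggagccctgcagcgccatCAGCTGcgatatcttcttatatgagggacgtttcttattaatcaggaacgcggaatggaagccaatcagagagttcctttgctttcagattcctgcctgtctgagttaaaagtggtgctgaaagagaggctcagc
Rfx3: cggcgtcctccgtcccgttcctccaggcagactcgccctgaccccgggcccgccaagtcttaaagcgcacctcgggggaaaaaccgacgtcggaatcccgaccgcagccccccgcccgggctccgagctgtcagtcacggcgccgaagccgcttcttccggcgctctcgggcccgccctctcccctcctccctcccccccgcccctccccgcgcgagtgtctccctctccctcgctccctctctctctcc
Cdh9 held 1 CAGCTG, 135 bases before the start, and neither of the other sequences held either motif. The table of promoters lists 8 of the 15 genes with 12 starts in all. CAGCTG was present before 4 of those 12 starts, which belong to 3 genes, and before 13% of all 32851 listed starts, and CAGATG before 0 of the 12 and 14.4% of all. Over the 345 listed genes that were at least 2-fold higher in granule layer spots, 12.3% of 496 starts held CAGCTG and 12.9% held CAGATG. Over the 8386 listed genes that were compared, 11.7% and 9.69% of 10962 starts held them, so the share of CAGATG in the higher genes lay between that of compared genes and that of all. A match of letters is a description and not a binding site.

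The 120 spots made up 3.29% of the kept spots and 4.09% of their UMIs in the trained section, and 3.41% and 5.51% in the untrained one. Depth differed, with 29515831 UMIs in the trained section and 59029131 in the untrained one. Granule layer spots ranged from 2161 to 27340 UMIs with a median of 7862.5 in the trained section, and from 3718 to 69219 with a median of 23518.5 in the untrained one, against medians of 6574 and 14170.5 in the remaining spots. Mitochondrially encoded genes took 8.49% and 13% of the UMIs of granule layer spots, and 12.4% and 16.3% of those of the rest. The sections shared 3448 barcodes, which name positions of the same array design and not cells.

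On the tissue most of the spots formed a band on each side of the array. In the trained section 63 of them lay in 1 connected group on the right, and those on the left were broken into groups of 28, 7 and 5 spots, while 17 had no granule layer spot as a neighbour. In the untrained section the 2 groups held 63 and 50 spots and 7 spots stood alone. The isolated spots were shallow, with a median of 3518 UMIs in the trained section and 5967 in the untrained one, and 24 spots of the trained section held only 2 of the 6 genes, while each of the 120 of the untrained section held at least 3.

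The 6 genes that chose the spots are given as a description. C1ql2, a secreted C1q-like protein of mossy fibre synapses, stood at 318 counts per 1000000 UMIs (CPM) in granule layer spots against 14.7 in the rest of the trained section, and at 295 against 17.3 in the untrained section. Prox1 stood at 281 against 23.7 CPM in the trained section and at 201 against 23.7 in the untrained one. Dsp, which encodes the desmosomal linker desmoplakin, stood at 137 against 2.66 and at 138 against 6.49 CPM. These levels follow from the choice of spots.

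Stxbp6, which encodes the SNARE-binding protein amisyn, stood at 313 against 53.7 CPM in the trained section and at 238 against 45.6 in the untrained one. Lct, the gene of lactase, stood at 91.0 against 4.59 and at 94.6 against 6.74 CPM, and was also seen in the 120 spots that scored highest for CA1 genes, at 36.3 and 53.3 CPM. Tdo2, the gene of tryptophan 2,3-dioxygenase, rested on 28 and 53 UMIs in the granule layer spots, 23.6 and 16.3 CPM against 1.40 and 1.22, and did not reach the minimum of 200 UMIs per section used for other genes.

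At the edge of the selection, scores passed from 0.522 to 0.520 between the last spot taken and the first left out in the trained section, and both were 0.543 in the untrained one. The summed level of the 6 genes was 709 CPM in the last 10 spots taken and 582 CPM in the first 10 left out of the trained section, and 560 and 509 CPM in the untrained section. The last 10 spots inside and the first 10 outside were therefore close to each other, against 1164 and 983 CPM over all granule layer spots and 101 CPM in the rest of both sections.

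Levels by distance from the 2 largest bands are given next. For the 6 genes the step out of a band is fixed by the rule, since spots beside it were mostly left out for low levels of these genes. Their summed level was 1187 CPM in the bands of the trained section, 291 in the spots that touch them, 156 at 2 steps, 210 at 3 and 96.5 at 4. In the untrained section it was 990, 299, 202, 132 and 105 CPM at the same distances. A list of 12 genes of granule neurons had no part in the choice of spots but was made with earlier results of these data known. It stood at 1673, 803, 486, 463 and 425 CPM in the trained section and 1528, 676, 513, 477 and 433 CPM in the untrained one.

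Summed markers of astrocytes, oligodendrocytes and CA3 were lower in the bands than beside them. Astrocyte markers were lowest in the bands, at 1561 and 1814 CPM in the trained and untrained sections, and highest in the touching spots, at 3384 and 3048 CPM. Oligodendrocyte markers stood at 1429 and 1645 CPM in the bands, 2851 and 2948 in the touching spots and 4155 and 4284 CPM at 2 steps. CA3 pyramidal markers stood at 116 and 141 CPM in the bands and at 361 and 354 CPM beside them, near the 310 and 304 CPM of the whole rest of the sections. Summed interneuron markers were lower in the bands as well, at 1080 against 2502 CPM beside them in the trained section and 1534 against 2057 in the untrained one. Gad1 of that list was an exception in the untrained section, at 185 against 137 CPM, and stood at 201 against 227 in the trained one.

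**Figure D1:**
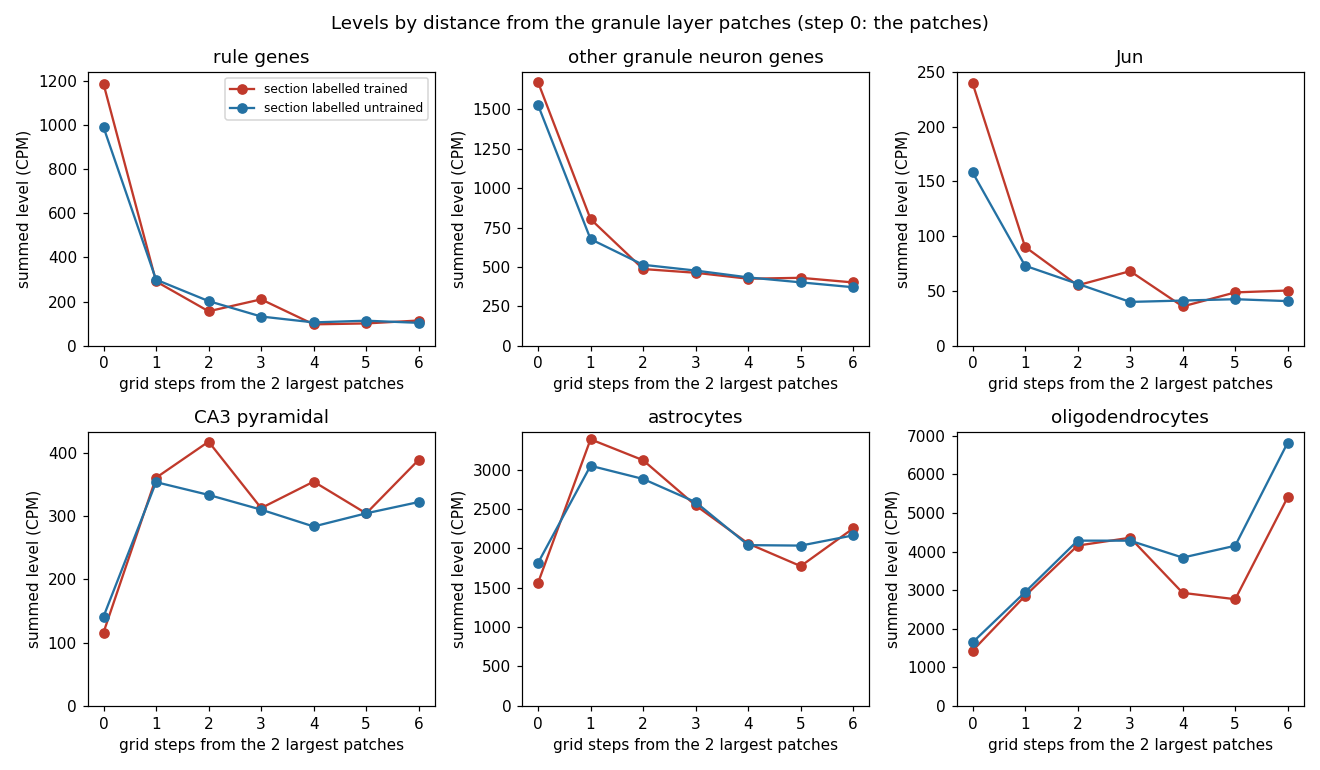
Summed level (CPM) of 5 gene sets and of Jun in rings of spots at 0 to 6 grid steps from the 2 largest granule layer patches, 1 line per section with no error bars; step 0 is the patches themselves. The 6 rule genes stand at 1187 and 990 CPM in the patches and at 291 and 299 CPM 1 step away in the sections labelled trained and untrained, and oligodendrocyte markers are lower in the patches than 1 step away.

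All other genes were then compared between granule layer spots and the rest of their own section, as a description, since the spots were chosen from the same counts. Among 10507 genes with at least 200 UMIs in each section, 464 (4.42%) were at least 2-fold higher in granule layer spots in both sections and 707 (6.73%) at least 2-fold lower in both. No gene was at least 2-fold higher in 1 section and at least 2-fold lower in the other, and 8733 genes had both folds on the same side of 1. Across these genes, which are not independent replicates and are measured in spots chosen by the same rule, the log2 folds of both sections had a Pearson r of 0.866. The median log2 fold of all genes was 0.09 in each section.

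The 15 genes with the highest folds include transcription factors, adhesion molecules and kinases. Capn3, the gene of a calpain protease, at chr2:120456019-120504913 on the plus strand of GRCm38, stood at 80.0 CPM against 5.31 in the trained section, 15.1-fold (interval 11.5 to 19.6). In the untrained section it stood at 64.1 against 5.45 CPM, 11.8-fold (9.81 to 14.1). The intervals of both sections overlapped.

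Regulators of transcription belonged to this group, as did the antisense gene of Prox1. Bhlhe22, a basic helix-loop-helix repressor, stood at 403 against 31.4 CPM in the trained section (12.8-fold, 11.4 to 14.3) and at 205 against 32.2 in the untrained one (6.38-fold, 5.83 to 6.98). Rfx3 stood at 161 against 18.7 and at 84.1 against 13.2 CPM, 8.59-fold and 6.37-fold. Cebpd, a leucine zipper factor of the C/EBP family, stood at 136 against 19.5 and at 121 against 17.8 CPM, 6.96-fold and 6.80-fold. Prox1os, at 53.9 against 8.22 and 59.8 against 9.33 CPM, overlaps Prox1 on the opposite strand, and whether strand was used in counting is not given in the sources used here.

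Adhesion and guidance molecules stood among the highest as well. Lrrtm4, a leucine-rich repeat organiser of excitatory synapses, stood at 101 against 17.5 CPM and at 74.2 against 12.1, 5.77-fold and 6.14-fold. Cdh9 stood at 56.4 against 8.61 and at 55.8 against 8.02 CPM, 6.55-fold and 6.96-fold. Sema5a, a transmembrane semaphorin, stood at 173 against 29.9 and at 178 against 31.5 CPM, 5.78-fold and 5.66-fold. These 3 genes had folds between 5.66 and 6.96 in both sections.

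Signalling genes made up most of the remainder. Dgkh, a diacylglycerol kinase, stood at 241 against 30.8 CPM in the trained section and 234 against 32.7 in the untrained one, 7.81-fold and 7.17-fold. Plk5, a polo-like kinase of the brain, stood at 67.4 against 6.03 and at 58.5 against 10.3 CPM, 11.2-fold and 5.66-fold. Plekha2, a phosphoinositide-binding adaptor, was 8.74-fold and 7.80-fold higher, and Jph1, a junctophilin that ties internal calcium stores to the plasma membrane, 6.57-fold and 6.48-fold. Fam163b stood at 338 against 49.1 and at 427 against 52.6 CPM, 6.88-fold and 8.12-fold, and Kctd4 at 172 against 21.9 and at 133 against 21.5 CPM, 7.86-fold and 6.20-fold.

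Because the rest of a section spans cortex, thalamus and hypothalamus, the same genes were set against spots within 5 grid steps of a granule layer spot, where 329 of the 10507 genes (3.13%) were at least 2-fold higher in both sections and 533 (5.07%) at least 2-fold lower. The nearby spots numbered 1180 in the trained section and 696 in the untrained one. They included spots around isolated granule layer spots, so the comparison was not confined to the surroundings of the bands. All 15 genes stayed higher than in the nearby spots, with log2 folds of 1.85 to 3.35 in the trained section and 1.82 to 2.68 in the untrained one. Levels on the left side of the array were 0.639 to 1.22 of those on the right in the trained section and 0.771 to 1.25 of them in the untrained one.

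Isolated spots carried little of these genes in the trained section. There, 14 of the 15 genes stood below 0.5 of the level of all granule layer spots. Bhlhe22 was at 45.5 CPM in the 17 isolated spots, Capn3 at 11.4 CPM, and Plk5 had no UMI. In the untrained section 5 of the 15 lay below 0.5 of the common level. With isolated spots left out, 481 genes were at least 2-fold higher and 780 at least 2-fold lower in both sections, of which 461 and 692 were among those found with them.

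Set beside the 120 spots of highest score for CA1 and for CA3 pyramidal genes, most of the 15 were at much lower levels there, which is given as a description with no test. In CA3-scored spots all 15 were below 0.5 of their granule layer level in both sections, and in CA1-scored spots 13 of 15 in the trained section and 14 of 15 in the untrained one. The exceptions were Cebpd, at 82.9 and 67.5 CPM in CA1-scored spots against 136 and 121 in granule layer spots, and Jph1 in the trained section, at 40.6 against 76.6 CPM. Of the CA1, CA3 and white matter sets, Kctd4 had its highest level in CA3-scored spots, at 84.3 and 62.1 CPM, and Sema5a too, at 60.9 and 59.5 CPM.

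**Figure D2:**
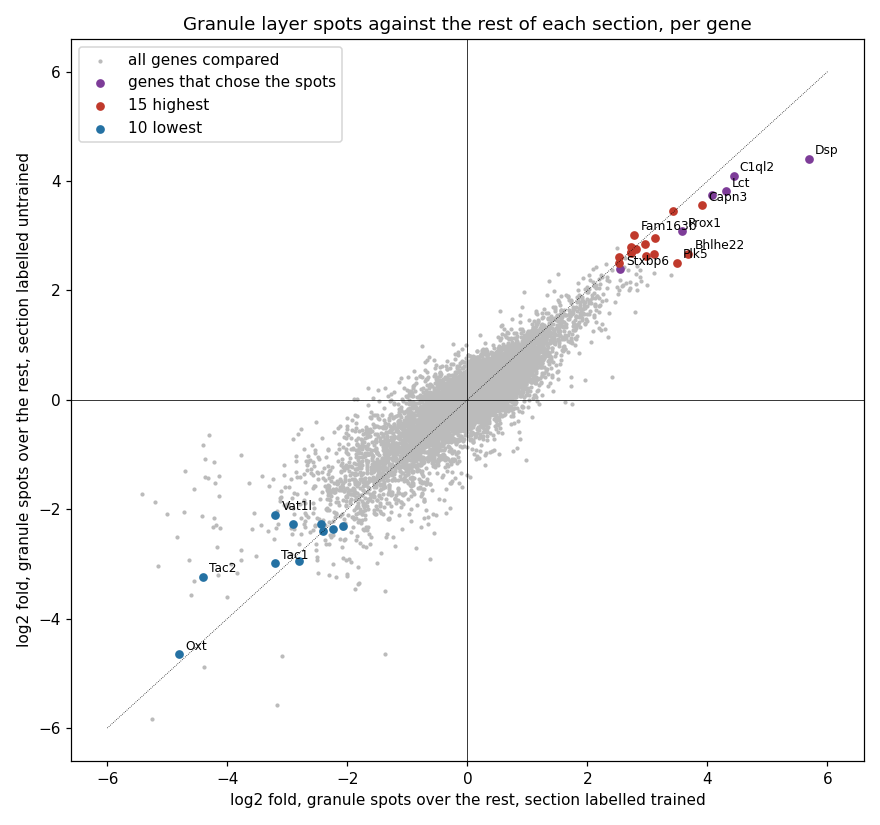
Log2 fold of pooled CPM in granule layer spots over the rest of the section, for the section labelled trained (x axis) and untrained (y axis); grey points are the genes compared, and the 6 genes that chose the spots, the 15 highest and the 10 lowest are coloured, some with their names. The 15 highest lie at 5.77-fold or more in the section labelled trained and 5.66-fold or more in the other, and Bhlhe22 and Plk5 lie below the dotted line of equal folds.

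At the other end stood genes of other brain regions, of myelin and of the choroid plexus. Oxt, the gene of oxytocin, stood at 24.4 CPM against 696 in the trained section and at 2.46 against 65.9 in the untrained one, that is 28.5-fold and 26.7-fold lower, but within 5 grid steps it was not lower in the trained section, at 24.4 against 22 CPM. The untrained value rests on 8 UMIs in 2 spots, and without isolated spots its log2 fold moved from -4.65 to -7.12. Tac1 and Tac2, precursors of tachykinin peptides, stood at 10.1 against 97.5 and 2.53 against 62.4 CPM in the trained section, and at 8.63 against 69.8 and 7.09 against 67.9 CPM in the untrained one. Ttr, the transthyretin of the choroid plexus, stood at 802 against 5600 CPM and at 2478 against 18999, with UMIs in 118 and 120 of 120 granule layer spots. The rest were Enpp2, the gene of autotaxin, the myelin gene Opalin, Resp18, Tmem91, Vat1l and the matrix gene Mgp, which were 4.33-fold to 9.94-fold lower.

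All 8 oligodendrocyte markers were at least 2-fold lower in both sections, and their summed level was 2194 CPM against 7435 in the rest of the trained section and 1719 against 6857 in the untrained one. Mbp, the gene of myelin basic protein, still stood at 897 and 899 CPM. Of all genes, 4.42% were at least 2-fold higher and 6.73% at least 2-fold lower in both sections. Of 8 astrocyte markers and of 8 microglial markers, none was 2-fold apart in both sections, and with so few genes that count is near those shares. Summed astrocyte markers stood at 1707 against 2367 CPM in the trained section and 1827 against 2393 in the untrained one, and summed microglial markers at 257 against 429 and 324 against 413. The 4 thalamic markers were all at least 2-fold lower.

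Markers of the neighbouring hippocampal fields differed by field, and are given beside 4.42% of all genes at least 2-fold higher and 6.73% at least 2-fold lower. Of 4 CA1 genes, 3 were at least 2-fold lower in both sections, among them Wfs1 at 19.4 and 25 CPM against 384 and 450 in CA1-scored spots, which were chosen with that gene. Of 6 CA3 genes 4 reached the minimum and 2 were at least 2-fold lower, Spock1 at 38.7 and 57.6 CPM against 189 and 184, and Coch at 3.37 and 4.93 against 19.2 and 15.9. Bok, another CA3 gene, was at 71.6 and 65.0 CPM against 81.7 and 84.8. Of 3 CA2 genes with enough UMIs, Rgs14, a regulator of G protein signalling, was at least 2-fold higher, at 83.4 against 39.8 and 62.2 against 27.3 CPM, but not against spots within 5 grid steps, with log2 folds of 0.23 and 0.74. No CA2 gene was at least 2-fold lower in both sections, though Amigo2 was so against the nearby spots, with log2 folds of -2.41 and -1.12. The summed CA2 list stood at 109 against 76.6 and 83.2 against 66.2 CPM. Calb2, the calretinin gene of hilar mossy cells and of some other neurons, stood at 22.7 and 41.9 CPM against 103 and 154 in the rest.

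Among 10 interneuron genes none was at least 2-fold higher and 3 were at least 2-fold lower in both sections, beside 4.42% and 6.73% of all genes. The 3 were the vesicular GABA transporter gene Slc32a1, Pvalb and Vip. Slc32a1 stood at 32.0 and 39.1 CPM against 166 and 81.4, and was not 2-fold lower in the untrained section against spots within 5 grid steps (log2 fold -0.44), nor was Pvalb (-0.68). Gad1, which makes the GABA-synthesising enzyme GAD67, was nearer to the rest, at 195 against 336 CPM in the trained section and 183 against 159 in the untrained one. Sst, the somatostatin gene, differed between the 60 spots of highest score and the other 60 of the untrained section, at 76.2 and 348 CPM.

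Granule neuron genes outside the rule were mostly higher. Of 12, 10 reached the minimum, 7 were at least 2-fold higher in both sections and none lower, beside 4.42% and 6.73% of all genes. Their median log2 fold was 2.14 in each section against 0.09 over all genes. The list was made with earlier results of these data known, so it is not an independent check of the choice of spots. Fam163b, Rfx3, Plk5 and Sema5a of this list are among the 15 highest genes described above. Calb1, the gene of calbindin, stood at 330 against 137 CPM in the trained section and 300 against 117 in the untrained one. Bcl11b, which encodes the factor Ctip2, stood at 147 against 38.0 and 131 against 32.1 CPM, and at 162 and 140 CPM in CA1-scored spots. Dock10, a guanine nucleotide exchange factor, stood at 169 against 33.7 and 112 against 23.8 CPM, and also reached 156 and 104 CPM in spots scored for oligodendrocyte genes. Ntng1 and Mn1 of this list were level with the rest, at 57.3 against 64.2 and 15.2 against 17.7 CPM in the trained section.

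Peptide and trophic factor genes differed one by one. Pdyn, the dynorphin precursor, stood at 69.9 CPM in both sections, 1.86-fold and 3.25-fold above the rest and at log2 folds of 2.05 and 2.56 over spots within 5 grid steps. Bdnf stood at 92.6 against 18.7 and at 67.8 against 19.1 CPM, and Ntrk3, the receptor of neurotrophin-3, at 122 against 46.3 and 90.0 against 42.4 CPM. Ntf3, the gene of neurotrophin-3 itself, named after its values were seen because it missed the minimum, stood at 43.8 against 2.87 and at 41.6 against 2.86 CPM, on 52 and 135 UMIs. Of the 14 peptide and trophic genes with enough UMIs 2 were at least 2-fold higher and 3 at least 2-fold lower in both sections, beside 4.42% and 6.73% of all genes, and against spots within 5 grid steps Ntrk3 had log2 folds of 1.21 and 0.74.

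Genes of the mossy fibre synapse were higher in 6 of 12 cases by at least 2-fold in both sections, and none was lower by that much, beside 4.42% and 6.73% of all genes. C1ql3, a partner of C1ql2, stood at 54.7 against 6.93 and at 37.9 against 8.86 CPM. Synpr, the gene of the vesicle protein synaptoporin, stood at 282 against 69.3 and 176 against 59.0 CPM, and Slc30a3, which loads zinc into vesicles, at 123 against 41.2 and 144 against 50.4 CPM. Nptx1, the neuronal pentraxin gene, stood at 432 against 113 and 446 against 130 CPM, Syt7, a calcium sensor of release, at 251 against 116 and 252 against 122, and Grik2, a kainate receptor subunit, at 52.2 against 22.8 and 33.3 against 15.9. Against spots within 5 grid steps Syt7 had log2 folds of 0.82 and 0.72, and Nrxn3, the gene of a presynaptic neurexin, was 2-fold lower, with -1.37 and -1.05. The vesicular glutamate transporter gene Slc17a7 stood at 496 against 364 and 687 against 434 CPM, below CA3-scored spots at 733 and 967.

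Desmoplakin normally acts with other desmosomal proteins. Of 7 partners only 3 had enough UMIs, and these 3 were not high together. Of them 1 was at least 2-fold higher in both sections and 1 at least 2-fold lower, beside 4.42% and 6.73% of all genes. Pkp2, a plakophilin, was at least 2-fold higher in both sections, at 32.8 against 10.8 and 36.4 against 15.2 CPM, yet was higher still in CA1-scored spots, at 57.8 and 72.0 CPM, and against spots within 5 grid steps its log2 folds were 0.50 and 0.14. Jup, the gene of plakoglobin, was lower, at 10.1 against 27.2 and 18.2 against 38.7 CPM, with log2 folds of -1.48 and -0.89 against those nearby spots. The desmocollin genes Dsc2 and Dsc3 had no UMI in the granule layer spots of either section.

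Genes of adult neurogenesis gave few counts. Of 16, 7 had enough UMIs. Neurod1 and Sox11 were at least 2-fold higher in both sections and none was at least 2-fold lower, beside 4.42% and 6.73% of all genes. The summed list was lower than in the rest, at 424.5 against 501 CPM in the trained section and 388 against 453 in the untrained one. Neurod1, a proneural factor that mature granule cells also hold, stood at 50.5 against 10.2 and 66.8 against 12 CPM, and Sox11, a factor of immature neurons, at 32.0 against 13.6 and 33.3 against 11.1 CPM. Dcx, the doublecortin gene of young neurons, had 7 and 20 UMIs, at 5.90 against 5.20 and 6.16 against 6.17 CPM. The proliferation genes Mki67 and Top2a had 1 UMI each in the trained section and 2 each in the untrained one. A difference in Dcx, Mki67 and Top2a was not detectable at this depth. Igfbpl1, another gene of young neurons, missed the minimum and stood at 9.26 against 1.94 CPM on 11 UMIs in the trained section and at 13.6 against 3.5 CPM on 44 UMIs in the untrained one.

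Of 19 forebrain transcription factors with enough UMIs, 4 were at least 2-fold higher in both sections and 4 at least 2-fold lower, beside 4.42% and 6.73% of all genes. Neurod2 stood at 270 against 43.3 and 227 against 51.7 CPM, Nfib at 181 against 48.7 and 177 against 56.2, Zbtb20 at 115 against 33.1 and 99.5 against 34.5, and Zeb2 at 181 against 71.0 and 133 against 58.4. Neurod6, which marks pyramidal neurons, stood at 24.4 and 33.9 CPM against 330 and 314 in CA1-scored spots. The lower ones included Lef1, Etv1 and Meis2. Against spots within 5 grid steps, Neurod2 and Nfib kept log2 folds above 1, with 1.74 and 1.41 for Neurod2, while Zbtb20 had 0.95 and 0.92 and Zeb2 0.85 and 0.60. There, 2 of the 19 were at least 2-fold higher and 5 at least 2-fold lower, beside 3.13% and 5.07% of all genes.

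**Figure D3:**
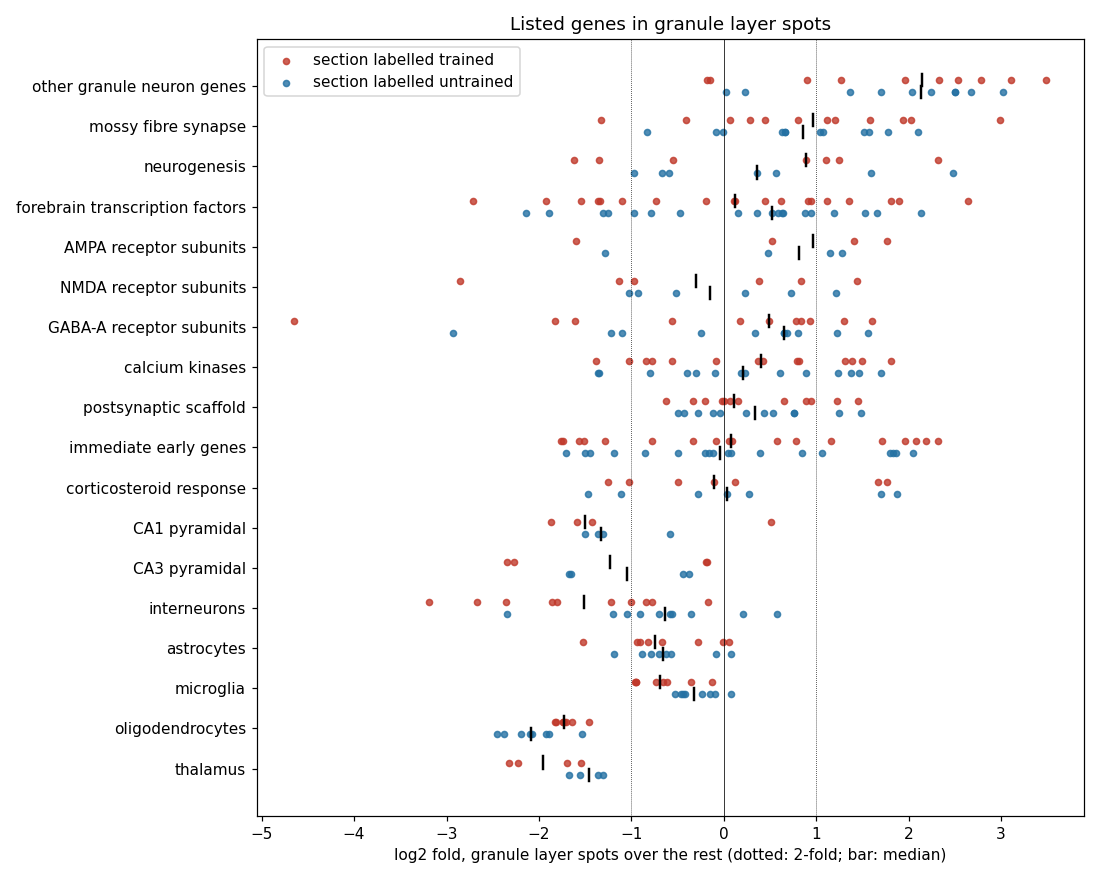
Each point is a listed gene with enough UMIs, at its log2 fold of granule layer spots over the rest (x axis), red for the section labelled trained and blue for the section labelled untrained; black bars are list medians and dotted lines 2-fold. The median of other granule neuron genes is 2.14 in both sections, and all oligodendrocyte and thalamic genes lie to the left of the lower dotted line.

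Receptor subunits differed by gene within each family. Gria1 and Gria2, AMPA receptor subunits, were at least 2-fold higher in both sections, at 659 against 194 and 731 against 276 CPM in the trained section and 451 against 186 and 334 against 151 in the untrained one. Gria3 stood at 165 against 116 and 118.6 against 85.2 CPM, and Gria4 was lower, at 8.42 against 26.7 and 10.8 against 26.7. Over spots within 5 grid steps the log2 folds of Gria1 were 1.15 and 0.52 and those of Gria2 1.21 and 0.74, so that neither was 2-fold in both sections there.

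The other ionotropic families also held genes of both kinds or of one. Of 5 kainate receptor genes, Grik2 (above) was at least 2-fold higher and none lower. Of 6 NMDA receptor genes, Grin2a was at least 2-fold higher, at 259 against 95.6 and 235 against 102 CPM, and stood at 411 CPM in CA1-scored spots of each section. Against spots within 5 grid steps its log2 folds were 0.77 and 0.37. Grin2d was at least 2-fold lower, at 1.68 against 15.3 and 7.09 against 14.7 CPM, and stayed so against those nearby spots. The obligatory subunit gene Grin1 stood at 247 against 189 and 274 against 235 CPM. Of 11 GABA-A receptor genes 2 were at least 2-fold higher, among them Gabra5 at 161 against 52.9 CPM in the trained section and 136 against 45.9 in the untrained one, and Gabra3, Gabrg1 and Gabrg3 were at least 2-fold lower, beside 4.42% and 6.73% of all genes. With spots within 5 grid steps as the rest, no GABA-A gene was 2-fold higher in both sections, and Gabrg1 was no longer 2-fold lower in the untrained one (log2 fold -0.86).

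Among 5 metabotropic glutamate receptor genes with enough UMIs, Grm2, a presynaptic autoreceptor of mossy fibres, stood apart. It was at 70.8 against 17.3 CPM in the trained section and 79.5 against 17.5 in the untrained one, with log2 folds of 1.84 and 1.95 over spots within 5 grid steps. In CA1-scored spots it stood at 5.18 and 7.32 CPM and in CA3-scored spots at 15.9 and 11.0. Grm4 was at least 2-fold lower, at 1.68 against 12.5 and 5.24 against 22.5 CPM. Of 14 potassium and cation channel genes, Kcna4 was at least 2-fold higher, at 40.4 against 13.3 and 26.5 against 12.2 CPM, which did not hold against spots within 5 grid steps, and 3 were at least 2-fold lower, beside 4.42% and 6.73% of all genes, among them Kcnh7, with a nearby log2 fold of -0.94 in the trained section, and Kcnq5.

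Listed genes of calcium signalling kinases and phosphatases were abundant, though not each of them depends on calcium. Camk2a and Camk2b, which form the main neuronal CaM kinase II, stood at 599 against 241 and 677 against 194 CPM in the trained section, and at 677 against 287 and 1151 against 353 in the untrained one. Ppp3ca, the calcineurin catalytic subunit, stood at 1770 against 676 and 1547 against 562 CPM, and Prkce, a calcium-independent protein kinase C, at 289 against 102 and 270 against 104. Camk2d and Camk1 were at least 2-fold lower, which left 4 of 14 genes higher and 2 lower, beside 4.42% and 6.73% of all genes. Camk2b alone of these 6 stayed 2-fold apart in both sections against spots within 5 grid steps.

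Of 12 postsynaptic scaffold genes, Dlg3, the gene of SAP102, stood at 237 against 86.7 and 236 against 84.7 CPM, and Homer3 at 25.3 against 10.9 and 28.3 against 12. Among 7 genes of the corticosteroid response, the mineralocorticoid receptor gene Nr3c2 stood at 94.3 against 27.9 and 84.7 against 26.2 CPM and the receptor co-chaperone gene Fkbp5 at 64 against 20.2 and 47.4 against 13. The glucocorticoid receptor gene Nr3c1 stood at 41.3 against 58.9 and 38.2 against 46.4 CPM. In both sections 2 of the 12 scaffold genes were at least 2-fold higher than in the rest and none lower. Of the 7 corticosteroid genes 2 were higher and 2 lower, beside 4.42% and 6.73% of all genes. The 2 lower ones were Sgk1 and Tsc22d3, both induced by glucocorticoids. Of these genes Homer3, Nr3c2 and Sgk1 were not 2-fold apart in both sections against spots within 5 grid steps, where Nr3c2 had log2 folds of 0.83 and 0.87.

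Immediate early genes, which neurons switch on after activity, went both ways. Of 22, 18 had enough UMIs, 5 were at least 2-fold higher in both sections and 4 at least 2-fold lower, beside 4.42% and 6.73% of all genes. Arc stood at 22.7 CPM (15 to 33.1) against 77.3 in the trained section and at 24.6 (19.5 to 30.7) against 70.2 in the untrained one. Egr1 stood at 53.9 against 155 and 50.5 against 138 CPM, Nr4a1 at 16 against 48.7 and 16.9 against 55.6, and Fos at 9.26 against 32.7 and 12 against 27.7. Against spots within 5 grid steps Fos was not 2-fold lower in the untrained section (log2 fold -0.95), and the others stayed so in both. In CA1-scored spots Arc stood at 154 and 178 CPM and Egr1 at 405 and 376.

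Jun went the other way. It stood at 224 CPM (198 to 253) against 53.2 in the trained section and at 157 (144 to 172) against 43.1 in the untrained one, and at 19.9 and 26.9 CPM in CA1-scored spots. In rings it stood at 240 and 158 CPM in the bands and at 90.2 and 73.0 in the touching spots. The other genes that were at least 2-fold higher were Bdnf (above), Pcdh8, the gene of the protocadherin arcadlin, at 136 against 35.2 and 124 against 35.8 CPM, Nrn1, the gene of neuritin, at 525 against 161 and 262 against 126, and Syne1, at 312 against 68.2 and 290 against 70.1. Against spots within 5 grid steps Nrn1 had log2 folds of 1.18 and 0.65, while Jun had 2.03 and 1.66.

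Since depth differed, each spot was thinned to 2000 UMIs before shares of spots were taken. Jun then had a UMI in 26.7% (interval 19.0 to 35.5) of granule layer spots in each section, in 9.94% and 8.44% of the rest and in 3.33% and 4.17% of CA1-scored spots and in 15% and 9.17% of white matter spots, chosen for oligodendrocyte genes, while unthinned shares were 65.8% and 90.0%. Arc had a UMI in 4.17% (1.37 to 9.46) of granule layer spots in each section, on 5 spots each, and in 3.33% and 4.17% of white matter spots, so that the share could not be told from the level in white matter at this depth. Its share was 10.8% and 11.1% in the rest and 24.2% and 32.5% in CA1-scored spots. Unthinned, Arc had a UMI in 20.8% and 45.0% of granule layer spots and in 13.3% and 14.2% of the shallower white matter spots. Calb1, after thinning, had a UMI in 35.8% and 36.7% of granule layer spots and in 1.67% and 4.17% of white matter spots. The rest stood at 19.7% and 18.6% and CA1-scored spots at 14.2% and 23.3%. Unthinned, Calb1 had a UMI in 74.2% and 96.7% of granule layer spots. Median depths before thinning were 4558.5 and 7108.5 UMIs in white matter spots.

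Housekeeping groups are given for comparison. Of 81 genes of cytoplasmic ribosomal proteins and 13 encoded by mitochondria none was at least 2-fold apart in both sections, and of 90 nuclear genes of oxidative phosphorylation 3 were at least 2-fold lower and none higher, beside 6.73% and 4.42% of all genes. Ribosomal proteins took 9.32% and 9.24% of the UMIs of granule layer spots against 8.63% and 8.15% in the rest. Mitochondrially encoded genes took a smaller share of pooled UMIs than in the rest (above), with a median log2 fold of -0.48 and -0.35. Single granule layer spots spread widely. Their lower quartiles were 29018 and 78708 CPM in the trained and untrained sections, against 97610 and 139210 in the rest. Their upper quartiles were 188930 and 229220 CPM, against 167620 and 199960 in the rest.

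Between the sections, levels in granule layer spots were compared for 2324 genes with at least 100 UMIs in the granule layer spots of each. At least 2-fold higher in the trained section were 71 genes (3.06%), and 11 (0.473%) were at least 2-fold lower. Since the trained section held fewer UMIs, this minimum asks for a higher level there and favours genes that are higher in it. With genes kept instead by a mean of at least 50 CPM over both sections, 89 of 3734 (2.38%) were at least 2-fold higher and 20 (0.536%) lower. With mitochondrially encoded genes left out of all totals, the split of 71 and 11 among the 2324 genes became 57 and 21, so the balance of directions depends on the scaling. Of the 82 genes at least 2-fold apart under the first minimum, 29 were at least 2-fold apart in the same direction in the rest of the sections. The median log2 ratio of trained over untrained was 0.17 in granule layer spots and 0.15 in the rest. With every spot thinned to 2000 UMIs, 289 genes had enough UMIs, of which 3 were at least 2-fold higher and 4 at least 2-fold lower.

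To set the granule layer beside the remainder of the sections, the log2 ratio in the rest was subtracted from that in granule layer spots. This difference was at least 2-fold upward for 3 genes (0.129%) and downward for 4 (0.172%). One of the 3 is Dsp, whose levels inside and outside the selection were set by the rule, so that nothing is read from it, and the others are Kcng2 and Bhlhe22. Bhlhe22 stood at 403 CPM (367 to 440) in the trained section and 205 (190 to 222) in the untrained one, a log2 ratio of 0.97 (0.80 to 1.14), while the rest of the sections stood at 31.4 and 32.2 CPM. Its log2 ratio was 0.86 on the left side and 0.99 on the right, and 1.05 without isolated spots.

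Other genes at the top of this difference were of more than one kind. Kcng2, a modifying potassium channel subunit, had a log2 ratio of 0.35 in granule layer spots and of -0.76 in the rest. Ahcyl2, an IP3 receptor-binding protein, stood at 254 and 181 CPM in granule layer spots, a log2 ratio of 0.49 (0.29 to 0.69), against 54.6 and 74.2 in the rest. Mal, a myelin gene, had a log2 ratio of 1.13 in granule layer spots and 0.31 in the rest, but in granule layer spots 0.30 without the isolated spots, which held 660 CPM of it in the trained section, and -0.17 with the 60 highest spots of each section.

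At the bottom were Penk, Pvalb, Sst, Gng7 and Gad1. Penk, the enkephalin precursor gene, stood at 98.5 and 84.1 CPM in the granule layer spots of the trained and untrained sections and at 257 and 72.9 in the rest. Gad1 stood at 195 and 183 CPM in granule layer spots and at 336 and 159 in the rest, and Gng7, a G protein gamma subunit gene, at 89.3 and 115 against 46.8 and 29.4. Sst was lower in the granule layer spots of the trained section, at 91.0 CPM (74.6 to 110) and 174 (160 to 189), against 318 and 260 in the rest. Pvalb stood at 87.6 and 120 CPM in granule layer spots and at 558 and 274 in the rest. Its log2 ratios were -0.45 in granule layer spots and 1.02 in the rest. The log2 ratio of Sst was -0.93 in all granule layer spots, -1.21 on the left side and -0.92 on the right. In the trained section Sst stood at 73.0 CPM in the 60 spots of highest score and 124 in the other 60, so the gap to the untrained section lay in the spots of lower score.

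Of the immediate early genes, 8 had enough UMIs for this comparison, all 8 had a log2 ratio above 0, as did 64.9% of the 2324 genes, and their median was 0.36 in granule layer spots and 0.02 in the rest, beside 0.17 and 0.15 over all genes. The minimum favours genes higher in the trained section and leaves out Arc. Kept by a mean of at least 50 CPM, 9 of these genes had a median of 0.27 and all 9 were above 0, beside 0.10 and 59.4% over 3734 genes. Nrn1 alone was at least 2-fold higher, at 525 CPM (484 to 568) in the trained section and 262 (244 to 280) in the untrained one. Its log2 ratio was 1.005 (0.85 to 1.16), 0.35 in the rest, 0.87 on the left side and 1.06 on the right. Jun had a log2 ratio of 0.51 (0.29 to 0.73), against 0.30 in the rest, with 0.11 on the left side and 0.64 on the right. Bdnf had 0.45 (0.11 to 0.79), against -0.03 in the rest.

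Arc and Egr1, on 27 and 64 UMIs in the trained section, had intervals that span 0, with log2 ratios of -0.10 (-0.80 to 0.53) and 0.10 (-0.35 to 0.52). On the left and right side Arc had 0.72 and -0.40, so not even the direction was shared. A difference of these genes was not detectable at this depth. Inhba, the activin subunit gene, rested on 24 UMIs in each section, with a log2 ratio of 1.45 (0.57 to 2.33) and 0.05 in the rest, and was named after its values were seen. Gria2 was 2-fold higher in granule layer spots of the trained section, a log2 ratio of 1.13 (1.001 to 1.26), and had 0.87 in the rest.

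**Figure D4:**
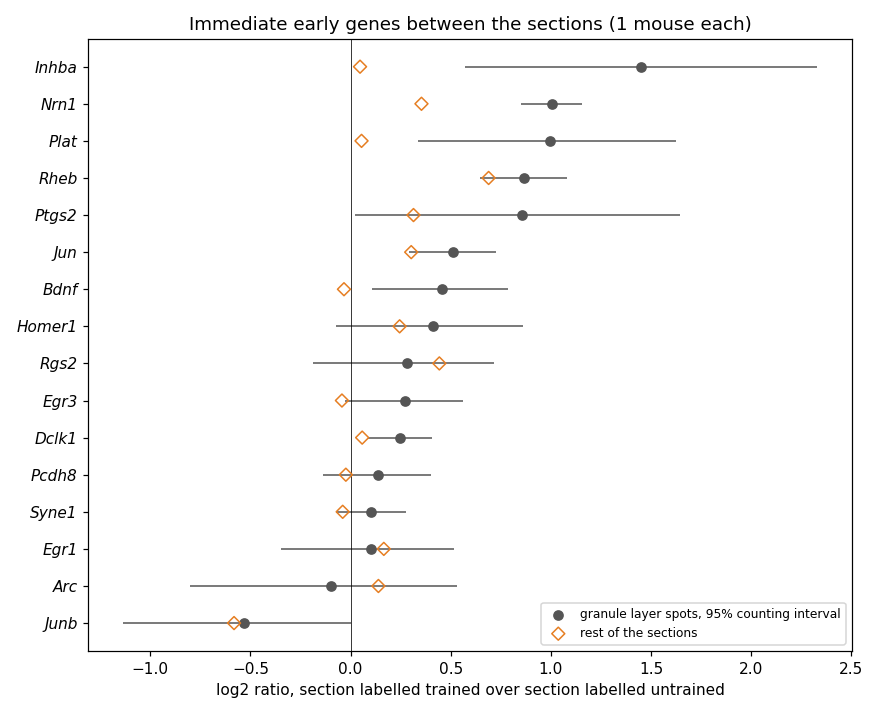
Log2 ratio between sections (trained over untrained) for the 16 immediate early genes with at least 20 UMIs in the granule layer spots of each section; filled points with bars are granule layer spots with 95% counting intervals, and open diamonds the rest of the sections. Each section is 1 mouse; Nrn1 stands at 1.005 in granule layer spots and 0.35 in the rest, and the bars of Arc and Egr1 cross 0.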

How the data were processed

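Visium libraries of 1 section per group were made by the authors with Space Ranger 2.0.0 on mm10, and the deposited matrices hold raw UMI counts per spot and gene, 1 matrix per section with 32285 genes. The Visium kit captures polyadenylated RNA near the 3′ end, so isoforms are not resolved, and how reads on opposite strands were counted is not given in the sources used here. Deposited spot positions gave grid neighbours, and deposited enrichment and scale factor files were not used. Counts were summed over spots and divided by their total UMIs (CPM), with a pseudocount of 0.5 UMI for log2 folds. Genes needed at least 200 UMIs in each section. Intervals are exact Poisson, Clopper-Pearson or conditional binomial intervals (95%). The members, lists and comparisons were chosen with earlier results of these data known. Named genes are the 15 highest and 10 lowest by the smaller fold of both sections among genes of at least 50 CPM, the 5 highest and 5 lowest section differences, and up to 5 examples a list, those of highest level plus any 2-fold apart. Other listed genes given with values, such as Dcx, Mki67, Dsc2, Ntng1, Mn1, Neurod6, Nr3c1 and Pdyn, were picked after their values were seen. Some genes that these rules name are not reported here. CA1, CA3 and white matter spots are the 120 of highest score for their markers. The calculation was tested on simulated data, and 22 other settings were tried, with 1 more for the section comparison added after seeing the data. Coordinates are GENCODE on GRCm38, matched by gene identifier for 32235 genes. Tables were handled in pandas 2.3.3 under Python 3.11.15, intervals came from scipy 1.17.1, arrays from numpy 2.4.6 and plots from matplotlib 3.10.9.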

Additional observations from a re-analysis of the deposited data

How the results depend on the processing

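No paired analysis was possible because each group holds 1 section. No replicate was left out for the same reason. Depth limits the comparison of low genes, since the trained section held about 0.5 of the UMIs of the other, and all intervals cover counting error only.

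The count of genes at least 2-fold higher in granule layer spots (464) was 300 with 200 spots per section, 174 with spots thinned to 2000 UMIs, 194 among genes of at least 1000 UMIs and 2605 with no minimum, where genes of a few UMIs pass by the pseudocount. The count of genes at least 2-fold lower (707) was 353 with 200 spots, 166 thinned, 1107 among genes of at least 50 UMIs, 242 at 1000, 1366 with no minimum and 367 with a pseudocount of 5 UMIs. Fewer genes were tested when thinned (5059) or at 1000 UMIs (4857). Between sections, the 71 higher genes (3.06%) became 3 of 289 genes compared when thinned (1.04%) and 27 of 492 on the left side alone (5.49%, a higher share), and the 11 lower genes became 17 without isolated spots, 21 without mitochondrially encoded genes and 4 when thinned (1.38%), and 20 among genes kept by mean level (0.536%), a setting chosen after seeing the data.

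With the rest limited to spots within 5 grid steps, where 3.13% of all genes were at least 2-fold higher and 5.07% lower, genes at least 2-fold higher numbered 2 of the forebrain factors, 0 of the GABA-A, 0 of the AMPA receptor and 0 of the potassium channel genes, 1 of the calcium kinases, 1 of the scaffold genes and 1 of the corticosteroid genes. Without thinning, shares of granule layer spots with a UMI were 84.2% and 95.8% for Prox1, 74.2% and 96.7% for Calb1, and 65.8% and 90.0% for Jun. Mal changed direction between the sections with 60 spots each, to -0.17, and Oxt in the trained section with the nearby rest, to 0.17. Over all settings, 1016 other log2 folds of named genes moved by less than 1.5-fold and 83 by more, and 241 section ratios stayed within their counting interval and 18 left it. The causes were not tested.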
